A study of Mus musculus with 6 samples.

Results

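Microglia that carried osteopontin (Spp1) or glycoprotein nmb (Gpnmb) transcripts were examined in single-nucleus RNA-seq libraries of neonatal mouse brain. They were chosen on raw UMIs (unique molecular identifiers, each counting 1 captured transcript). Nuclei with at least 300 detected genes and at most 1% of UMIs from mitochondrial genes were kept. Among these, a member had at least 2 UMIs of Csf1r, Inpp5d and Runx1 together (the myeloid gate), at least 2 UMIs of Spp1 and Gpnmb together, at most 2 UMIs of F13a1 and at most 1 UMI of Mog and Mag together. This gave 353 members of 60724 nuclei kept and of 63383 barcodes in all, of which 345 came from the LPA libraries and 8 from the vehicle libraries.

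The libraries came from whole brains, without olfactory bulbs and cerebellum, of C57BL/6 S-56 mice. Neonates received lysophosphatidic acid (LPA 18:1, a blood-borne signalling lipid used here as a model of hydrocephalus after hemorrhage) into the right lateral ventricle at P7, or the vehicle, fatty acid-free BSA in PBS. All animals received flunixin, an analgesic, and brains were collected at P15. Nuclei negative for the neuronal antigen NeuN were sorted, and each of the 3 LPA and 3 vehicle libraries held the nuclei of 1 brain. The libraries held between 48852970 and 65688644 UMIs in all. No dose of LPA is given in the labels, and the injection itself was common to both groups.

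Microglia are the resident macrophages of brain tissue, held in a surveying state by Csf1r signalling and TGF-beta and marked there by P2ry12, Tmem119, Siglech and Sall1. In white matter development, demyelination and neurodegeneration, some microglia lose these transcripts and gain Spp1, Gpnmb, Igf1, Itgax, Apoe and genes of lysosomes and lipid handling. Osteopontin is a secreted ligand of integrins and CD44, Gpnmb is a transmembrane glycoprotein of lysosomes and the cell surface, and the MiT/TFE transcription factors (Mitf, Tfeb, Tfe3, Tfec) drive lysosomal genes through a DNA word built around CACGTG.

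Because genes of the lysosome formed the list with the largest number of higher members in the results below, the 250 bases before the transcription start are shown for Gpnmb, the gene that defined most members, for Ctsd (cathepsin D, a lysosomal protease) and for Atp6v1a (the catalytic subunit of the vacuolar proton pump). The sequences run 5′ to 3′ on the strand of the gene and were taken from RefSeq, build GRCm38.p6, with the starts in RefSeq. They cover chr6:49036268-49036517 (plus strand), chr7:142387828-142388077 (minus strand) and chr16:44139260-44139509 (minus strand), in that order, and capitals mark CACGTG, which reads the same on both strands and was the only word searched.
Gpnmb: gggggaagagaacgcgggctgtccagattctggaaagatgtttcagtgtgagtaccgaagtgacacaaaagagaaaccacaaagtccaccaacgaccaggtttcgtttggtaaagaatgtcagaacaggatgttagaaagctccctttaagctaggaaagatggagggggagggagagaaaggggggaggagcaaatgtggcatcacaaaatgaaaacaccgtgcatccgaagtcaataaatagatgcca
Ctsd: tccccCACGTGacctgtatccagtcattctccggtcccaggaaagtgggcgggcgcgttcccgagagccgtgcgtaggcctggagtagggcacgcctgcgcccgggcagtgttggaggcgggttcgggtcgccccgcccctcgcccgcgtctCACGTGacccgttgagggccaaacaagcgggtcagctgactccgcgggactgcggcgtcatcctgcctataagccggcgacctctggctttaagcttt
Atp6v1a: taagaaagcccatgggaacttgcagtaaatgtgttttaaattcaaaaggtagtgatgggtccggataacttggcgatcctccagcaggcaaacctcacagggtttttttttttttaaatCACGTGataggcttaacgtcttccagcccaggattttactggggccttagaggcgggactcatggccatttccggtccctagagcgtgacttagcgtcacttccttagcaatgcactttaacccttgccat
Ctsd held the word at 245 and at 98 bases before its start and Atp6v1a at 131 bases, while these letters were not in the Gpnmb window. Ctsd and Atp6v1a are both among the 11 list genes with the word, so they do not stand for the list. In windows of the same length the word was present for 6.86% of 27025 genes with an entry and for 10.1% of 8312 genes tested below. It was present for 11 of 34 genes of the lysosome list (32.4%) and for 8 of the 23 of these that were higher in members (34.8%). The share was thus similar in the whole list, which was drawn up before, and in its higher genes. A match of letters is a description and was not tested as a binding site.

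Members made up 0.985%, 1.32% and 1.38% of the nuclei kept in LPA libraries 1, 2 and 3, and 0.0123%, 0.0403% and 0.0162% in vehicle libraries 1, 2 and 3. The means were 1.23% ± 0.213 and 0.0230% ± 0.0151 (SD, n = 3 libraries each). Of the nuclei in the myeloid gate, members were 8.95% (95% exact binomial interval 7.20 to 11.0), 12.9% (10.89 to 15.03) and 15.4% (12.98 to 18.04) in the LPA libraries. The vehicle shares were 0.268% (0.00679 to 1.48), 0.509% (0.166 to 1.18) and 0.538% (0.0652 to 1.93), so the LPA and vehicle libraries did not overlap. These intervals cover counting error only, and since Spp1 and Gpnmb UMIs chose the members, the shares are a description with no test.

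**Figure D1:**
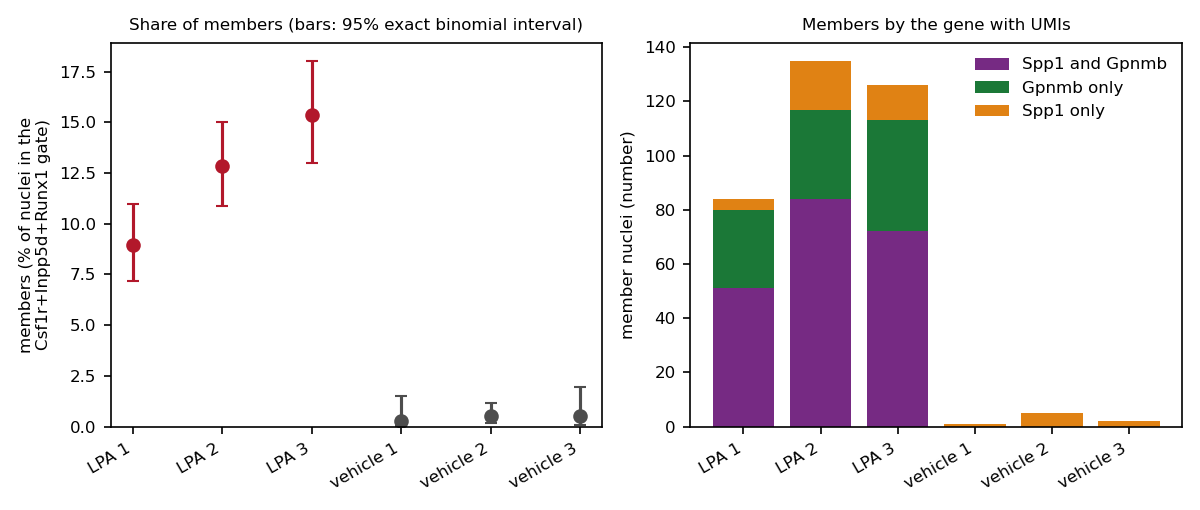
Left, members as a percent of the nuclei in the myeloid gate (y axis) for each library (x axis), points with 95% exact binomial intervals. Right, number of members per library, split by whether UMIs of both Spp1 and Gpnmb, of Gpnmb only or of Spp1 only were present; the 3 LPA libraries hold 84, 135 and 126 members and the vehicle libraries 1, 5 and 2, all of the latter with Spp1 only.

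The 2 genes of the choice were not shared evenly. Of the 345 LPA members, 207 held UMIs of both Spp1 and Gpnmb, 103 of Gpnmb only and 35 of Spp1 only. All 8 vehicle members held Spp1 only. Gpnmb was close to absent from vehicle myeloid nuclei. With the myeloid gate and the Mog and Mag limit alone, F13a1 macrophages included, 2156 LPA nuclei held 1604 Gpnmb UMIs and 1155 vehicle nuclei held 1. Free RNA is a floor for such counts, and nuclei with at least 3 Mog and Mag UMIs and none of the myeloid gate, which should lack Gpnmb, held at least 1 Gpnmb UMI in 0.942% to 1.04% of cases in the LPA libraries and 0.187% to 0.252% in the vehicle libraries, at median depths of 4879 to 6972 UMIs.

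The few vehicle members are described here by the genes of the choice, which is no test. In 3 of them the myeloid gate was passed on Runx1 alone, and these held 9 to 19 Spp1 UMIs and no UMI of P2ry12, Cx3cr1 or Siglech. The other 5 held 2 or 3 Spp1 UMIs and 0 to 7 UMIs of those 3 microglial genes. Scrublet, a caller of simulated doublets, marked 100%, 80.0% and 100% of the 1, 5 and 2 members of the vehicle libraries, against 38.1%, 22.2% and 27.8% of the members and 37.4%, 32.5% and 32.1% of the comparison microglia in LPA libraries 1, 2 and 3. Only 10 of the 345 LPA members passed on Runx1 alone, but 127 also held no UMI of P2ry12, Cx3cr1 or Siglech. The highest Spp1 counts in members of LPA libraries 1, 2 and 3 were 17, 20 and 17 UMIs. The vehicle members were too few for any comparison of genes, and all results below concern the 345 LPA members.

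The values that chose these nuclei were as follows. Summed over members, Spp1 stood at 508, 758 and 697 CPM (UMIs of the gene per 1000000 UMIs of the set in that library) in LPA libraries 1, 2 and 3, and Gpnmb at 701, 1405 and 988 CPM. At the edge of the choice, 57 members held exactly 2 UMIs of Spp1 and Gpnmb together and 129 LPA nuclei of the same gates held 1 and were left out. The F13a1 limit removed 6 and the Mog and Mag limit 86 of 435 LPA nuclei that met the other limits. Median depths were 2983, 2617 and 2515 UMIs per member.

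Stab1 (stabilin-1, a scavenger receptor), Igf1 (insulin-like growth factor 1) and Lama3 (laminin alpha-3), named as markers of these cells from earlier results on the same nuclei, are likewise given as a description. Stab1 had 557, 1226 and 938 CPM in members and 215, 251 and 274 CPM in Spp1- and Gpnmb-free microglia of the same libraries, but F13a1 macrophages were higher still, at 1376, 1692 and 1864 CPM. Igf1 had 468, 552 and 606 CPM in members, 37.0, 51.3 and 63.6 CPM in these microglia and 203, 206 and 158 CPM in the macrophages. Lama3 had 213, 327 and 199.5 CPM in members against 11.5, 16.5 and 22.5 CPM in microglia and 13.8, 7.90 and 31.6 CPM in macrophages. At least 1 UMI of Stab1 was present in 318 of the 345 members, against 53.1%, 55.0% and 55.4% of the comparison microglia and 2.39%, 2.87% and 2.80% of nuclei in the Mog and Mag gate, while Lama3 UMIs were found in 52.4%, 45.2% and 41.3% of the members.

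The main comparison set members against microglia with no UMI of Spp1 or Gpnmb and at least 3 UMIs of P2ry12, Cx3cr1 and Siglech together, of which the LPA libraries held 390, 416 and 287. UMIs were summed per library and set and tested with edgeR's quasi-likelihood test with library as a block. Genes were called at an adjusted p (Benjamini-Hochberg over all genes tested) under 0.05 where the log2 fold change, up or down, reached 0.25. The 11 genes of the gates and the 3 markers above were not tested. Of 10632 genes tested, 540 were higher in members (5.08%) and 178 lower (1.67%), with a median log2 fold change of -0.01 over all of them. Without LPA library 2, 334 were higher. DESeq2 called 278 higher and 73 lower. The excess of higher genes was smaller with nuclei thinned to 2000 UMIs (601 higher and 518 lower), with Scrublet calls left out (667 and 499) and with an upper limit on UMIs (643 and 412).

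The label of these nuclei was first set against markers of the cells they could be. Trem2, a lipid-sensing receptor of microglia, had 87.3, 150.2 and 119 CPM in members and 85.5, 103 and 86.1 CPM in the Spp1- and Gpnmb-free microglia, with overlapping values, whereas macrophages had 23.0, 15.8 and 0 CPM. The 10 markers of microglia, gate genes included, summed to 2706 ± 672 CPM in members, 4059 ± 102 CPM in these microglia and 2383 ± 700.4 CPM in F13a1 macrophages, with overlap between members and macrophages. Without the 6 gate genes the other 4 summed to 584, 892 and 765 CPM in members, 912, 885 and 885 CPM in these microglia and 92.0, 79.0 and 174 CPM in macrophages, so members lay above every macrophage library. P2ry12 had 103, 168 and 181 CPM in members and 372, 355 and 390.2 CPM in the comparison microglia, which were chosen on it. No UMI of P2ry12, Cx3cr1 or Siglech was found in 127 of the 345 members, and 85 members held at least 3.

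Of 15 marker genes of macrophages at the brain borders 12 were detected in members of any library. The list holds F13a1, whose UMIs chose the macrophages and limited the members, so it was summed without that gene. The other 14 summed to 736, 1107 and 1024 CPM in members, 342, 292 and 413 CPM in the microglia and 6084 ± 796 CPM in the macrophages; with F13a1 the macrophages stood at 8889 ± 1174 CPM. Lyve1, Cd163 and Cd209f, which define such macrophages, were at 0 in members of every library. Cd209f was also at 0 in the microglia of every LPA library, and Lyve1 in those of libraries 1 and 2. The most abundant marker was Dab2 in library 1 and Mrc1 in libraries 2 and 3. Other markers of the list were higher in members than in the microglia. With at least 3 UMIs of P2ry12, Cx3cr1 and Siglech asked of members too, edgeR called Ms4a7 (3.21, adjusted p = 0.0127) and Ms4a4a (3.79, adjusted p = 0.0390) higher. Mrc1, Dab2, Cp and Cd38 were not called there. Of 10 monocyte markers 6 were detected in members, with Vcan or Itga4 as the most abundant and Ly6c2, Plac8 and Chil3 at 0 in every library. Their sum was 216 ± 10.1 CPM in members and 181 ± 19.7 CPM in the microglia, with no overlap of libraries, and its part in the results was not tested. Neutrophil markers were at 0 of 6. Of the dendritic cell list, H2-Aa, H2-Eb1 and Cd74 were at 0 in members, and H2-Ab1 was detected in library 3 only. The sum of that list, topped by Itgax, was 93.2 ± 13.6 CPM in members and 18.1 ± 10.3 CPM in the microglia. The libraries did not overlap, and the part of this sum in the results was not tested.

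**Figure D2:**
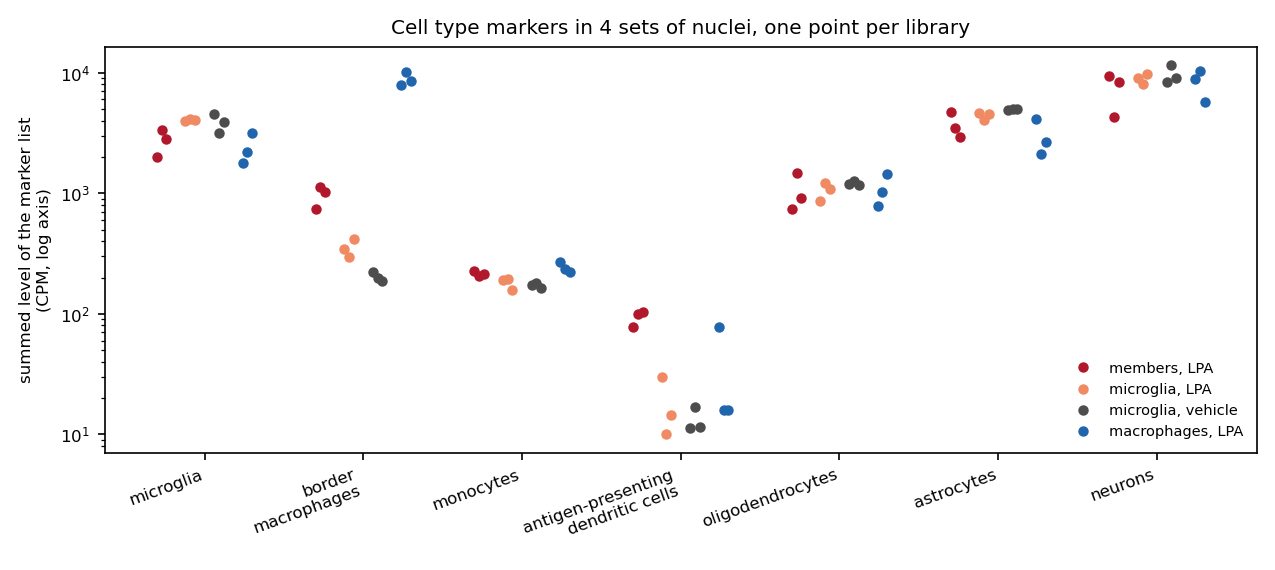
Summed level of 7 cell type marker lists (y axis, CPM, log axis) in members, Spp1- and Gpnmb-free microglia of LPA and vehicle libraries and F13a1 macrophages, 1 point per library. Genes of the gates are included, so part of the gaps was set by the choice of nuclei: border macrophage markers sum to between 736 and 1118 CPM in members and near 8889 CPM in macrophages with F13a1, against 955 and 6084 CPM on average without it.

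RNA of neurons, glia and precursors was present in all sets. Markers of neurons summed to 9401, 4325 and 8359 CPM in members of LPA libraries 1, 2 and 3 and to 8938 ± 917 CPM in the comparison microglia. Members of library 2 therefore carried the least neuronal RNA, and many genes described below had their highest level in that library. Astrocyte markers summed to 3723 ± 940.1 and 4408 ± 301 CPM, and oligodendrocyte markers without the gate genes Mog and Mag to 969 ± 353 and 977 ± 172 CPM. Markers of oligodendrocyte precursors summed to 3126, 1849 and 2225 CPM in members and to 3042, 3095 and 2192 CPM in the microglia, so library 2 was again the lowest among members but not among the microglia. The part of such RNA in the results was not tested.

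Of the genes that were higher in members, the gene with the largest fold change at 100 CPM or more was Atp6v0d2, the d2 subunit of the vacuolar proton pump, known from osteoclasts and macrophages. It lies on chromosome 4 at 19876841 to 19922605 (minus strand, build mm10) and overlaps no other annotated gene. Its level was 254, 431 and 257 CPM in members and 1.04, 0 and 4.02 CPM in the microglia of the same libraries. It was listed at 0 in all vehicle microglia and in all macrophages of the LPA libraries. The log2 fold change against LPA microglia was 7.64 ± 0.38 (edgeR adjusted p = 4.33e-07).

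Atp6v0d2 was not present in every member. At least 1 UMI was found in 50.0%, 43.7% and 39.7% of the members of LPA libraries 1, 2 and 3, and in 37.0%, 41.0% and 32.7% of the 73, 100 and 101 members with at least 2000 UMIs once these were thinned to 2000, the 11, 35 and 25 shallower ones being left out. The shares were 0.513%, 0% and 1.05% in the comparison microglia, at median depths of 2696.5, 2127.5 and 2118 UMIs. In nuclei of the Mog and Mag gate, at median depths of 6469.5 to 6972 UMIs, the unthinned shares were 0.362%, 0.658% and 0.609%. Thinned, the shares were 0.364%, 0% and 1.84% of the microglia deep enough and 0.0736%, 0.121% and 0.123% of the Mog and Mag gate, so members were above both.

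The other genes among the 10 with the largest higher fold changes were of mixed function. Dkk2, a secreted modulator of Wnt signalling, had 235, 228 and 172 CPM in members against 1.04, 4.72 and 5.63 CPM (log2 fold change 5.88 ± 0.32, adjusted p = 4.33e-07). Hpse, heparanase, an enzyme that cleaves heparan sulfate, had 99.0, 241 and 205 CPM against 7.82, 11.2 and 8.85 CPM (4.22 ± 0.22, adjusted p = 4.33e-07). Apobec1, a cytidine deaminase that edits RNA, was the most abundant of them at 450.2, 678 and 576 CPM against 46.9, 47.8 and 70.8 CPM (3.38 ± 0.18, adjusted p = 4.33e-07). The members and the microglia did not overlap for any of these 3 genes.

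Ms4a7, a membrane protein of macrophages and one of the border macrophage markers above, had 81.5, 144 and 110.0 CPM in members. The microglia had 3.65, 6.49 and 9.65 CPM, a log2 fold change of 4.12 ± 0.26 (adjusted p = 1.46e-06). The inhibitory receptor gene Lilrb4a had 151, 219 and 144 CPM against 11.99, 4.72 and 6.44 CPM (4.43 ± 0.28), and its values are uncertain because a near copy, Gm49339, overlaps it on the same strand. Adam33, a metalloprotease, had 165, 205 and 160.4 CPM against 5.21, 12.4 and 14.5 CPM (4.11 ± 0.25). The other 3 genes were Mamdc2 (3.47 ± 0.21), the noncoding RNA Gm13391 (4.90 ± 0.32) and 5033421B08Rik (3.16 ± 0.24), which is annotated antisense to Slc7a15. All 10 genes remained called under each of 17 alternative settings of this comparison.

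Of the 42 listed genes of MiT/TFE factors and the lysosome, 40 were tested, and 28 were higher in members, 12 were not called and none was lower, with a median log2 fold change of 0.95, against 5.08% higher and 1.67% lower over all genes tested. Without LPA library 2 the count was 19 of 40, without library 1 it was 29 of 40 and without library 3 it was 25 of 41. With at least 3 UMIs of P2ry12, Cx3cr1 and Siglech asked of members too, it was 4 of 39. In that fit 44 genes in all were higher and 7 lower, so the shares over all genes above are not its background.

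The MiT/TFE factors themselves differed among each other. Mitf, best known from pigment cells and osteoclasts, had 607, 932 and 981 CPM in members and 245, 309.8 and 344 CPM in the microglia (log2 fold change 1.48 ± 0.15, adjusted p = 4.18e-05). Its relative Tfec, found in macrophages, had 34.9, 77.3 and 33.6 CPM against 6.25, 8.26 and 8.04 CPM (2.66 ± 0.33, adjusted p = 0.000216). Tfeb, the factor most tied to lysosome formation, gave a smaller difference of 0.72 ± 0.18 (adjusted p = 0.0317). With the microglial limit on members too, neither Tfec (2.35 ± 0.49, edgeR adjusted p = 0.0743) nor Tfeb (0.34 ± 0.30, edgeR adjusted p = 0.956) was called. Tfe3 had 52.4, 75.1 and 52.2 CPM against 51.6, 59.0 and 52.3 CPM, with overlapping libraries and no call (0.14 ± 0.19, adjusted p = 0.793).

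Transcripts of 4 genes whose proteins act in the retention of these factors at the lysosome were called higher. Fnip2, a partner of folliculin in signalling from the lysosome, had 778, 1268 and 962 CPM in members and 174, 161 and 202 CPM in the microglia (log2 fold change 2.48 ± 0.18, adjusted p = 4.11e-06). Its paralog Fnip1 gave 1.24 ± 0.16, folliculin (Flcn) 1.08 ± 0.16 and Rragd, a Rag GTPase, 1.62 ± 0.27, all with an adjusted p of at most 0.00188. With the microglial limit on members too, Fnip2 was still called, but Fnip1 (0.86 ± 0.26, adjusted p = 0.353), Flcn (0.74 ± 0.29, adjusted p = 0.577) and Rragd (1.53 ± 0.44, adjusted p = 0.263) were not. An unnamed gene model, Gm3513, lies within Fnip2 on the same strand.

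Among lysosomal enzymes, Ctsb (cathepsin B) had 551, 910.0 and 852 CPM in members and 179, 219.5 and 268 CPM in the microglia (1.80 ± 0.15, adjusted p = 1.18e-05). Ctsd had 497, 881 and 850.3 CPM against 285, 329.9 and 381 CPM (1.14 ± 0.16, adjusted p = 0.000538). Ctsz gave 1.41 ± 0.19 and the protective protein Ctsa 1.27 ± 0.15. Not all enzymes followed: Ctss (cathepsin S) had 91.2, 161 and 131 CPM in members and 159, 198 and 164 CPM in the microglia, with overlapping libraries and no call (-0.45 ± 0.16, adjusted p = 0.136), and Psap, the precursor of saposins, gave 0.09 ± 0.18. Subunits of the proton pump other than Atp6v0d2 that were called lay between 0.70 ± 0.15 for Atp6v0a1 and 1.26 ± 0.16 for Atp6v1a.

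**Figure D3:**
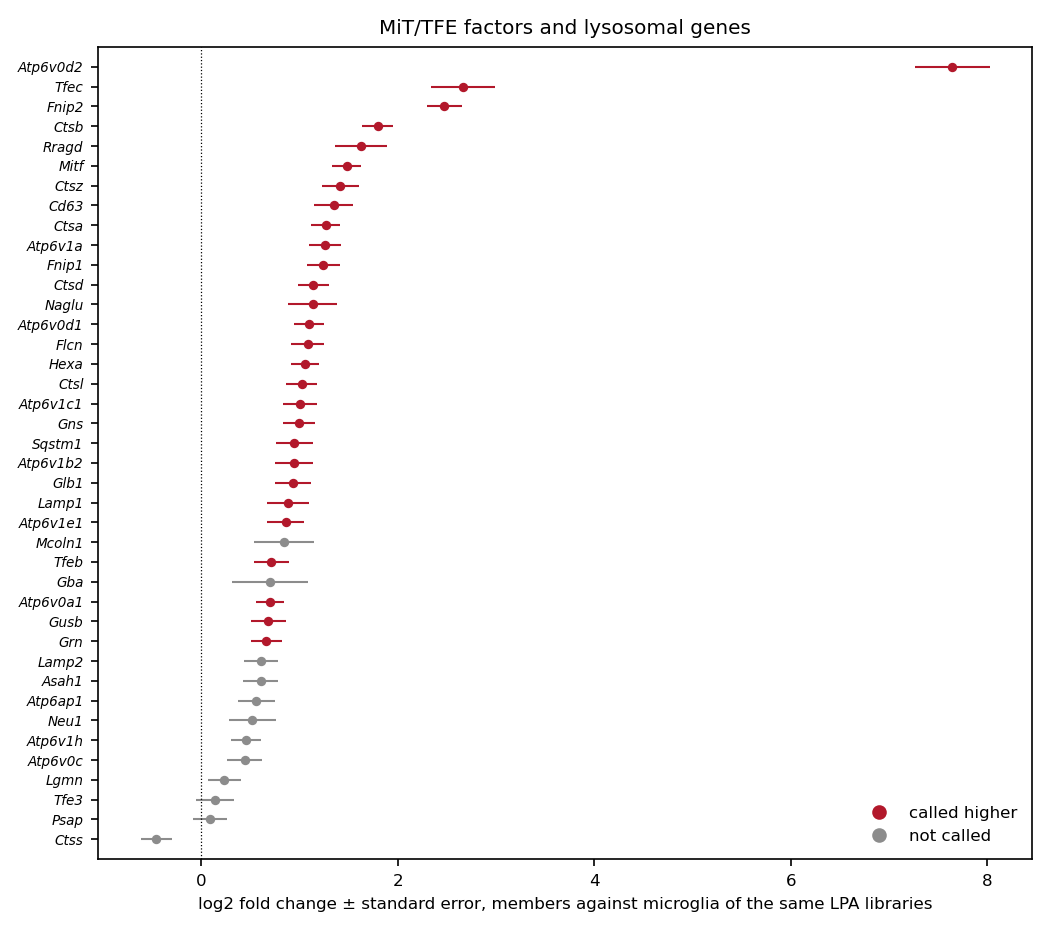
Log2 fold change with a standard error derived from the test statistic (x axis) of the 40 tested genes of the MiT/TFE and lysosome list (y axis), members against Spp1- and Gpnmb-free microglia of the same 3 LPA libraries. Red points are called higher (28 genes) and grey points are not called; Atp6v0d2 at 7.64 stands apart from the rest, of which Tfec at 2.66 is the next.

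Genes that mark microglia in disease and in developing white matter were almost all higher in members. Of 32 such genes besides the gate genes and markers, 26 were tested, and 24 were higher and none lower (median log2 fold change 1.29), against 5.08% and 1.67% over all genes tested. With the microglial limit on members too, 3 of 23 were higher, in a fit where 44 genes in all were higher. Itgax, the integrin CD11c, had 67.9, 94.98 and 98.8 CPM in members and 4.69, 1.18 and 1.61 CPM in the microglia (4.97 ± 0.38, adjusted p = 5.85e-06). Lgals3, the galactose-binding galectin-3, had 31.1, 77.3 and 52.2 CPM against 1.04, 3.54 and 1.61 CPM (4.62 ± 0.37, adjusted p = 8.6e-06). Both were near 0 in microglia without Spp1 and Gpnmb. Csf1, a ligand of the receptor encoded by Csf1r, had 120.3, 150.2 and 181 CPM against 32.3, 24.2 and 45.0 CPM (2.17 ± 0.19, adjusted p = 1.36e-05). The tetraspanin Cd9 had 312, 369 and 382 CPM against 115, 109 and 105 CPM (1.70 ± 0.15, adjusted p = 1.36e-05).

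Trem2, the receptor on which such states depend in other settings, was not called against these microglia (log2 fold change 0.37 ± 0.17, adjusted p = 0.272). Its adaptor Tyrobp was higher by 1.06 ± 0.20 (adjusted p = 0.00625). The chemokines Ccl3 (33.0, 68.5 and 41.0 CPM) and Ccl4 (31.1, 35.3 and 42.9 CPM) were low but higher than in the microglia, which had at most 10.4 and 6.78 CPM. The log2 fold changes were 2.60 ± 0.36 and 2.74 ± 0.36. Lpl and Cst7 of this list were too low to be tested.

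Genes of lipid uptake, storage and export were higher in part. Of 34 genes, 25 were tested, 10 were higher and none lower, with a median log2 fold change of 0.42, against 5.08% higher and 1.67% lower over all genes tested. Plin2, a coat protein of lipid droplets, had 87.3, 128 and 110.0 CPM in members and 18.2, 27.1 and 30.6 CPM in the microglia (2.12 ± 0.20, adjusted p = 2.36e-05). Soat1, which esterifies cholesterol for storage, had 209.6, 331 and 263 CPM against 70.9, 75.5 and 74.8 CPM (1.85 ± 0.16, adjusted p = 1.18e-05). Apoe, the main lipid carrier of the brain, had 1626, 2569 and 2053 CPM against 779, 898 and 1059 CPM (1.19 ± 0.17, adjusted p = 0.000667), so these 3 genes separated the sets in every library.

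The cholesterol exporters Abca1 (0.98 ± 0.15, adjusted p = 0.00148) and Abcg1 (0.93 ± 0.19, adjusted p = 0.00886), acid lipase Lipa (1.14 ± 0.22, adjusted p = 0.00657) and the nuclear receptor Pparg (2.64 ± 0.41, adjusted p = 0.00131) were also higher. The other 15 tested genes of the list were not called.

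**Figure D4:**
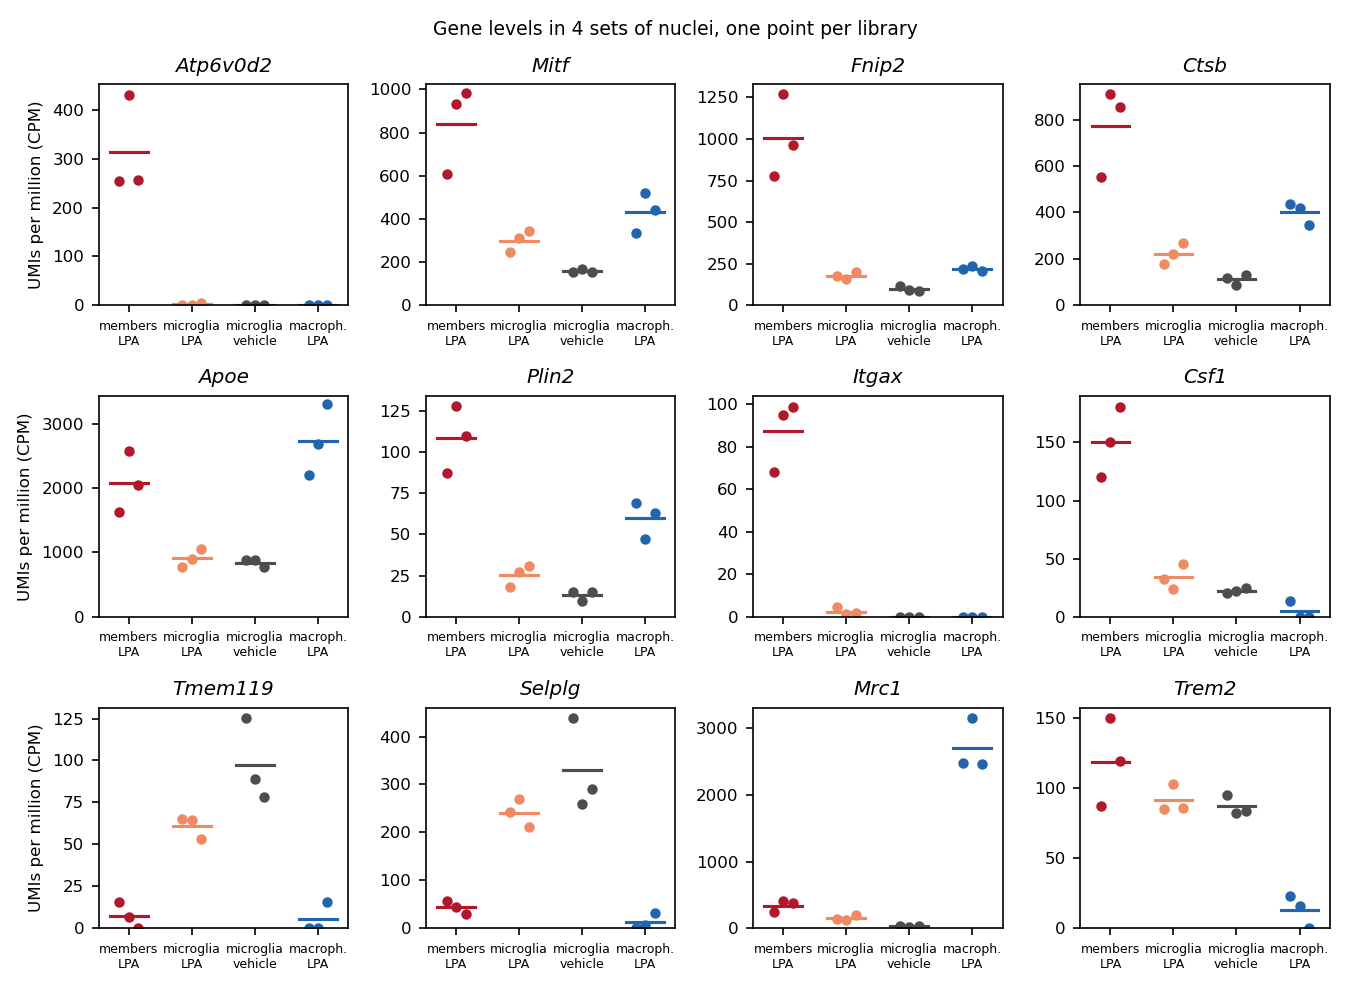
Levels (y axis, CPM from 0) of 12 genes in members of LPA libraries, Spp1- and Gpnmb-free microglia of LPA and of vehicle libraries and F13a1 macrophages of LPA libraries (x axis), 1 point per library and a line at the mean. Atp6v0d2 and Itgax are at 0 in vehicle microglia and macrophages, Tmem119 and Selplg are low in members, Mrc1 is near 2698 CPM in macrophages against 342 CPM in members, and Trem2 overlaps between members and both sets of microglia.

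Of 35 listed genes of phagocytosis and complement 24 were tested, and 7 were higher and 4 lower (median log2 fold change 0.20), against 5.08% higher and 1.67% lower over all genes tested. With the microglial limit on members too, 0 of 23 were called by edgeR, with 6 at an unadjusted p under 0.05. Gas6, which bridges phosphatidylserine on dying cells to the receptors Axl and Mertk, had 219, 419.7 and 330.0 CPM in members and 122, 142 and 134 CPM in the microglia (1.26 ± 0.16, adjusted p = 0.0003). Axl was higher by 1.27 ± 0.30 (adjusted p = 0.0229), whereas Mertk had 919.9, 1336 and 1180.3 CPM against 1046, 1028 and 1021 CPM and was not called (0.15 ± 0.16). The inhibitory Fc receptor Fcgr2b (1.79 ± 0.19, adjusted p = 7.7e-05), the complement C3a receptor C3ar1 (2.49 ± 0.29) and Cd300lf, a lipid-binding receptor (3.59 ± 0.57), were higher.

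The activating Fc receptor Fcgr1 (-1.58 ± 0.35, adjusted p = 0.0143), the integrin Itgam of complement receptor 3 (-1.52 ± 0.17, adjusted p = 9.52e-05), C1qa (-0.89 ± 0.18, adjusted p = 0.00885) and Elmo1 (-0.58 ± 0.16, adjusted p = 0.0486) were lower. Itgam stood at 54.3, 77.3 and 61.5 CPM in members and at 178, 202 and 175 CPM in the microglia, with no overlap. The other C1q chains, C1qb (-0.30 ± 0.18) and C1qc (-0.49 ± 0.17), were not called. Neither without library 1 nor by DESeq2 were C1qa, Fcgr1 and Elmo1 called. Elmo1 was called in 10 of 17 alternatives, and lost its call also without library 3, with at least 3 or 5 UMIs of Spp1 and Gpnmb asked of members, and with no microglial limit on the comparison nuclei.

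Of genes for proteins that osteopontin and Gpnmb bind, 3 of 11 tested were higher and 2 lower, against 5.08% and 1.67% over all genes tested, and most of these calls were lost in some alternatives. Itga4, a subunit of the osteopontin receptor alpha-4 beta-1, had 67.9, 99.4 and 112 CPM in members against 26.1, 16.5 and 36.2 CPM (1.84 ± 0.24, adjusted p = 0.000308). Cd44 (1.51 ± 0.40, adjusted p = 0.0371) and Itgav (0.76 ± 0.15, adjusted p = 0.0068) were higher too. Cd44 was called in 6 of 15 alternatives, with log2 fold changes of 1.06 to 2.04, and lost its call without each of the 3 LPA libraries and by DESeq2, and Itgav, called in 14 of 17, lost its call without library 3 and by DESeq2. The alpha-9 subunit Itga9 (-1.04 ± 0.16, adjusted p = 0.00102) and Itgb5, the beta-5 partner of alpha-v (-0.63 ± 0.16, adjusted p = 0.0357), were lower. Itgb5 lost its call in 6 of 17 alternatives, DESeq2 and leaving out library 1 or 3 among them.

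Genes of iron and oxidant handling included 4 higher of 16 tested, against 5.08% over all genes tested. Hmox1, which degrades heme, was low but higher in members, at 27.2, 53.0 and 13.1 CPM against 2.08, 1.77 and 1.61 CPM (4.01 ± 0.47, adjusted p = 0.000148). The ferritin light chain Ftl1 (1.52 ± 0.18), the iron exporter Slc40a1 (1.26 ± 0.27) and Nfe2l2, the oxidant-response factor (1.26 ± 0.15), were higher as well, and ferritin heavy chain Fth1 was not called (0.51). Slc40a1 was not called without library 2. Of 8 osteoclast genes tested, 2 were higher, Atp6v0d2 and the chloride transporter Clcn7 (1.27 ± 0.17), while the defining osteoclast genes Ctsk and Acp5 had at most 2.21 CPM in any library of members.

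Other lists held few calls, and 5.08% higher and 1.67% lower over all genes tested is the background for them too. Of growth factor and matrix genes, Adam8 (2.62 ± 0.47), Hgf (1.43 ± 0.38) and Timp2 (0.93) were higher and Igfbp5 (-1.78 ± 0.36) and Col27a1 (-0.78 ± 0.17) lower, of 26 tested. Of macrophage transcription factors, Atf3, of the stress response (3.91 ± 0.55), Rxra (1.29 ± 0.28) and Bhlhe41 (1.04 ± 0.24) were higher and Irf5 (-1.06 ± 0.27) lower, of 19 tested. Ifi207 (3.83 ± 0.53) and Slfn5 (1.44 ± 0.36) were the only higher genes of 11 tested interferon-stimulated genes, but Slfn5 was called in 5 of 14 alternatives (log2 fold changes of 0.70 to 1.57) and lost its call without each of the 3 LPA libraries and by DESeq2. In the glycolysis and hypoxia list Hif1a (0.87 ± 0.17) and Pfkfb3 (1.34 ± 0.16) were higher of 17 tested. Leaving out a single library also ended the calls of Hgf, Col27a1 and Irf5 (library 1), of Timp2, Hgf, Rxra and Bhlhe41 (library 2) and of Col27a1, Irf5, Bhlhe41 and Hif1a (library 3). By DESeq2 Hgf, Timp2, Igfbp5, Col27a1, Rxra, Bhlhe41, Irf5 and Hif1a were not called, among 15 of the 61 genes named by rule that lost their call.

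No gene of the lists of cytokines and NF-kB (12 tested), cell division (6 tested) or LPA and sphingosine phosphate signalling (7 tested) was called by edgeR. In the first of these, Tnf, Il1b and Il6 were too low to be tested, and Tnfaip3 gave 1.22 ± 0.36 (adjusted p = 0.0653). Lpar6, a receptor for LPA, had 19.4, 35.3 and 28.0 CPM in members and 46.4, 45.4 and 33.0 CPM in the microglia (-0.59 ± 0.27, adjusted p = 0.273), and Enpp2, the enzyme that makes LPA, gave -0.20 ± 0.22. Of nuclei with at least 2000 UMIs, thinned to that number, at least 3 UMIs of cell division genes were found in 2.74%, 1.00% and 4.95% of 73, 100 and 101 members and in 6.91%, 3.45% and 5.52% of 275, 232 and 163 microglia, with 115, 184 and 124 shallower microglia left out. Over all nuclei the unthinned shares were 20.2%, 11.1% and 14.3%, and 20.0%, 15.9% and 16.7%.

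**Figure D5:**
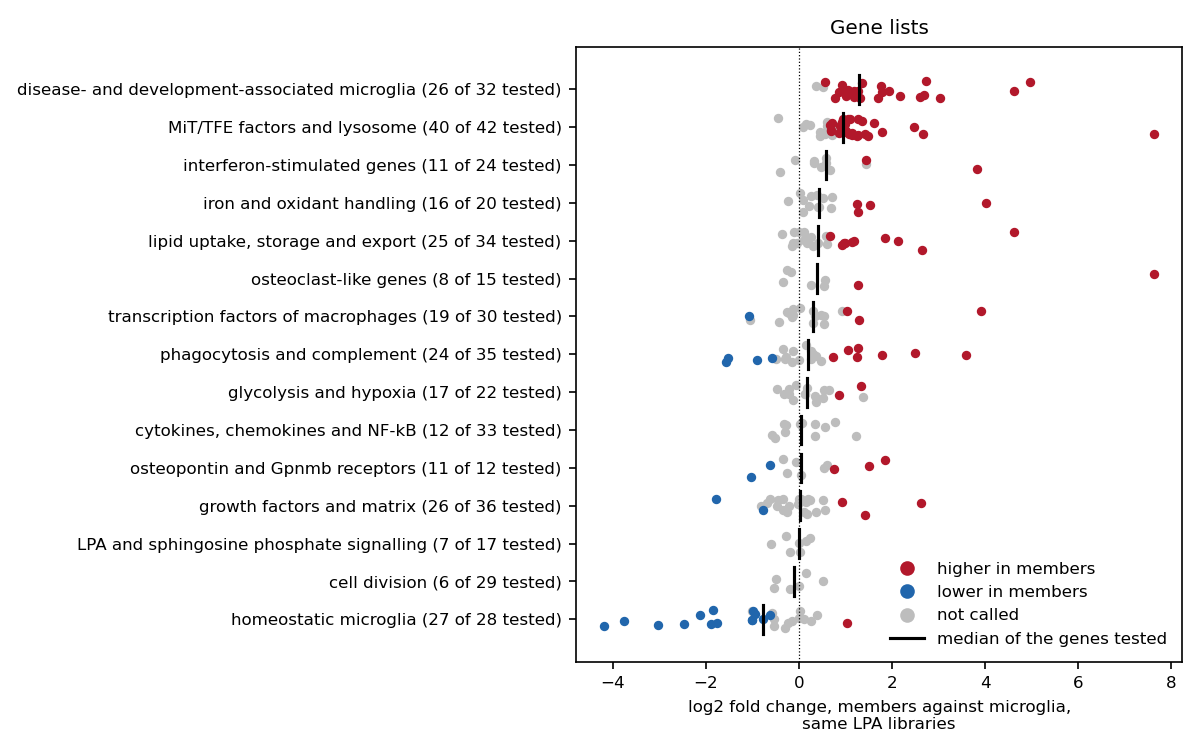
Log2 fold change (x axis) of every tested gene of 15 lists (y axis, with the number tested of the number listed), members against Spp1- and Gpnmb-free microglia of the same LPA libraries. Red and blue points are genes called higher and lower, grey points were not called, and bars are medians, which run from 1.29 for disease- and development-associated genes to -0.77 for homeostatic genes.

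Of the homeostatic microglial genes besides the gate genes, 14 of 27 tested of 28 listed were lower, 1 was higher and 12 were not called, with a median log2 fold change of -0.77, against 1.67% lower and 5.08% higher over all genes tested. With the limit on P2ry12, Cx3cr1 and Siglech by which the comparison microglia were chosen put on members too, 2 of 27 were lower. In that fit 7 genes in all were lower, and the median log2 fold change of the list, given below, was not smaller. Selplg, a selectin ligand, had 56.3, 44.2 and 29.8 CPM in members and 243, 269 and 211 CPM in the microglia (-2.46 ± 0.20, adjusted p = 7.54e-06). Tmem119 had 15.5, 6.63 and 0 CPM against 65.2, 64.3 and 53.1 CPM (-3.02 ± 0.44, adjusted p = 0.000739), and Sall1, a transcription factor of microglial identity, had 27.2, 39.8 and 26.1 CPM against 102, 114 and 131 CPM (-1.89 ± 0.22, adjusted p = 0.000124). For all 3 genes every library of members lay below every library of microglia.

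The organic anion transporter Slco2b1 (-2.13 ± 0.18), the matricellular Sparc (-1.84 ± 0.17) and the crystallin gene Crybb1 (-3.76 ± 0.33) were lower as well. Outside the list, Ptgs1, the constitutive cyclooxygenase, had 33.0, 28.7 and 26.1 CPM against 121, 120.4 and 117 CPM (-2.01 ± 0.20, adjusted p = 4.49e-05). Mef2c (-0.14 ± 0.15), Cd33 (0.02 ± 0.16) and Gpr34 (-0.54 ± 0.18) of the homeostatic list were not called, and Bhlhe41 was higher.

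The comparison microglia were chosen for at least 3 UMIs of P2ry12, Cx3cr1 and Siglech, and members were not, which bears on all of these counts. With that limit put on members too, 85 nuclei remained (20, 30 and 35 in the 3 libraries), and 44 genes were higher and 7 lower of 9868 tested. The lysosome list then gave 4 higher of 39 tested (median log2 fold change 0.58), the disease- and development-associated list 3 of 23 (0.94) and the homeostatic list 2 lower of 27 (-0.88). Of the lipid list 1 of 23 was higher, Soat1, and of the osteoclast list 1 of 7. None was called by edgeR in the lists of phagocytosis (6 of 23 at an unadjusted p under 0.05), osteopontin and Gpnmb receptors (5 of 10), iron and oxidant handling (3 of 14), growth factors and matrix (3 of 24), transcription factors (3 of 16), glycolysis and hypoxia (3 of 17) and interferon-stimulated genes (0 of 8). Fewer nuclei were tested here, and the part of that in the lost calls was not tested. Not called with the limit, though about as large as above or larger, were Cd44 (2.04), Igfbp5 (-3.15) and Slc40a1 (1.21). The differences of Tfeb (0.34) and Timp2 (0.33), also not called, were smaller than above.

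Of the 61 genes named by rule for this comparison, 20 remained called with that limit, 33 were not called, 8 could not be tested and none changed direction. Atp6v0d2 (6.89 ± 0.58, adjusted p = 0.000388), Dkk2 (5.87 ± 0.38), Itgax (4.81 ± 0.57), Apobec1 (3.02 ± 0.26), Fnip2 (1.78 ± 0.29), Mitf (1.33 ± 0.23, adjusted p = 0.0312) and Ctsb (1.31 ± 0.24, adjusted p = 0.039) were still higher, and Selplg (-1.72 ± 0.30) still lower. Apoe (0.94 ± 0.29, adjusted p = 0.373), Plin2 (1.60 ± 0.33, adjusted p = 0.0721), Ctsd (0.96 ± 0.26, adjusted p = 0.235) and Tmem119 (-1.83 ± 0.55, adjusted p = 0.329) were not called.

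Members were next set against F13a1 macrophages, nuclei of the myeloid gate with at least 3 F13a1 UMIs and at most 1 UMI of Spp1 and Gpnmb, of which the LPA libraries held 41, 30 and 16. Of 6975 genes tested, 102 were higher in members (1.46%) and 141 lower (2.02%). Cd163, a hemoglobin scavenger receptor, was at 0 in all members and at 364, 482 and 189.6 CPM in macrophages, at least 187-fold lower against a floor of 3 UMIs over all members. The fatty acid receptor Cd36 was also at 0 in members, against 78.2, 94.9 and 142 CPM, at least 46.8-fold lower. The mannose receptor Mrc1 had 243, 409 and 375 CPM in members and 2476, 3154 and 2465 CPM in macrophages (log2 fold change -3.03 ± 0.24, adjusted p = 3.48e-05), and Msr1, another scavenger receptor, gave -4.39 ± 0.44.

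Higher in members than in macrophages were Atp6v0d2 (at least 41.9-fold, with a floor of 3 UMIs over all macrophages), Hpse (5.78 ± 0.64), Dkk2 (4.82 ± 0.47), Gpr137b, a lysosomal membrane protein (3.17 ± 0.32) and Cd9 (2.75 ± 0.29). Csf1 had 120.3, 150.2 and 181 CPM in members and 13.8, 0 and 0 CPM in macrophages (4.18 ± 0.60, adjusted p = 0.00203), and Trem2 was higher by 2.69 ± 0.51 (adjusted p = 0.0117). Itgax was at 0 in macrophages, at least 11.8-fold below members. Of the lysosome list 6 of 39 tested genes were higher and none lower, against 1.46% and 2.02% over all genes tested. Fnip2 (2.11 ± 0.25), Ctsd (2.31 ± 0.25) and Ctsl were among them, and the last 2 lost their call without LPA library 1.

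Several genes that separated members from microglia did not separate them from macrophages. Apoe had 2195, 2679.7 and 3302 CPM in macrophages, with values that overlapped those of members (-0.42 ± 0.21, adjusted p = 0.463). Adam33 (0.02 ± 0.25), Tfec (0.15 ± 0.42), Abca1 (0.11 ± 0.21) and Gas6 (0.17 ± 0.23) were likewise not called, and Ms4a7 was lower in members than in macrophages (-1.43 ± 0.25, adjusted p = 0.00836). Macrophage sums were small, with 1 UMI worth 15.8 CPM in library 3. Without LPA library 1 the calls dropped to 11 higher and 23 lower, and without library 3 they rose to 185 and 195. Of the genes above, Cd36, Csf1, Trem2, Itgax and Ctsd were not called without library 1.

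Against Spp1- and Gpnmb-free microglia of the vehicle libraries (133, 405 and 136 nuclei), LPA members had 644 higher (7.31%) and 314 lower genes (3.57%) of 8805 tested. Treatment and the choice of nuclei differ together in this comparison and cannot be told apart. Markers of pericytes and meningeal cells, topped by Bnc2 in vehicle microglia, summed to 598 ± 137 CPM there, to 227 ± 46.5 CPM in members and to 297 ± 28.4 CPM in LPA microglia, and neither LPA set overlapped the vehicle libraries. All 8 markers were detected in every one of these libraries except members of LPA library 3, with 7. The lower genes included the laminin subunit Lama2 (-0.95 ± 0.20), not called without LPA library 3, and the growth factor binding proteins Igfbp5 (-2.21 ± 0.34) and Igfbp7 (-1.16 ± 0.31), the latter called in 4 of 10 alternatives, and the part of such RNA in these calls was not tested. Atp6v0d2 and Itgax were at 0 in all 3 vehicle libraries, at least 316-fold and 89.3-fold below members against a floor of 3 UMIs over all vehicle microglia. Anapc15, a subunit of the anaphase-promoting complex whose annotated span holds Gm22655 on the same strand, had 580.3, 778 and 625 CPM in members and 20.9, 17.3 and 22.9 CPM in vehicle microglia (5.05 ± 0.21, adjusted p = 3.89e-08). Of the lysosome list 28 of 39 tested genes were higher and none lower, and of the homeostatic list 13 of 27 were lower and 1 higher. Without LPA library 3 the calls were 424 higher and 179 lower, without vehicle library 2 they were 413 and 197, and without vehicle library 3 the lower genes numbered 178.

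The lower genes of this comparison included mitochondrial transcripts. mt-Atp6 had 29.1, 48.6 and 85.8 CPM in members, 47.4, 70.8 and 125 CPM in LPA microglia and 299.99, 169.8 and 274 CPM in vehicle microglia. The log2 fold change was -2.16 ± 0.31 against vehicle microglia and -0.57 ± 0.19 (not called) against LPA microglia, and -1.60 ± 0.25 (adjusted p = 0.00168) between LPA and vehicle microglia. The median mitochondrial percent was lower in all nuclei kept of the LPA libraries (0.0102, 0.0154 and 0.0263) than of the vehicle libraries (0.0631, 0.0506 and 0.0628), so these transcripts moved with the libraries and not with the members alone. The part of nucleus quality in this was not tested.

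For part of these genes the LPA microglia without Spp1 and Gpnmb lay between vehicle microglia and members. Between LPA and vehicle microglia, 100 of 12284 genes were higher with LPA (0.814%) and 110 lower (0.895%). Mitf rose from 158 ± 9.05 CPM in vehicle to 299.7 ± 50.4 CPM in LPA microglia (0.89 ± 0.13, adjusted p = 0.00153), with 840.1 ± 203 CPM in members. Fnip2 went from 99.4 ± 14.6 to 179 ± 20.9 CPM (0.85 ± 0.13, adjusted p = 0.00178), with 1003 ± 247 CPM in members, and Ctsb from 112 ± 21.0 to 222 ± 44.6 CPM (1.04 ± 0.16, adjusted p = 0.00168), with 771 ± 193 CPM in members. This comparison shares its LPA microglia with the main one, so the values are given side by side.

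Gas6 (1.05 ± 0.13), Cd9 (0.74 ± 0.13), Abca1 (0.61 ± 0.13), Mrc1 (2.50 ± 0.22) and Anapc15 (2.92 ± 0.22) were also higher in LPA than in vehicle microglia outside the members. Apoe was not: it had 881, 877 and 770.0 CPM in vehicle microglia and 779, 898 and 1059 CPM in LPA microglia (0.10 ± 0.13, adjusted p = 0.831). The same held for Soat1 (0.18 ± 0.15), Ctsd (0.30 ± 0.17), Csf1 (0.54 ± 0.25) and Selplg (-0.42 ± 0.15), none of which was called. Tmem119 (-0.65 ± 0.16, adjusted p = 0.0453) and Cst3 (-0.72 ± 0.13) were lower in LPA microglia.

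Members were next compared among themselves. Between the 207 with UMIs of both Spp1 and Gpnmb and the 103 with Gpnmb only, edgeR called 0 of 5156 genes higher (0.0%) and 0 lower (0.0%), with 337 genes at an unadjusted p under 0.05, and DESeq2 called 0. Without LPA library 1 the calls were 1 higher and 16 lower, and without library 2 they were 7 and 12. Among single genes, chosen after their values were seen, were Itgax, at 78.6, 123 and 144 CPM in members with both and 39.9, 17.1 and 28.7 CPM in those with Gpnmb only (1.88 ± 0.40, adjusted p = 0.12), and Fam20c, a kinase that phosphorylates osteopontin, at 116, 134 and 104 CPM against 39.9, 51.3 and 34.4 CPM (1.48 ± 0.33, adjusted p = 0.153). Neither overlapped between the sets, and neither passed the adjustment.

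Atp6v0d2 UMIs were present in 52.2% of members with both genes, 35.0% of those with Gpnmb only and 20.0% of the 35 with Spp1 only. For Itgax the shares were 30.4%, 9.71% and 28.6%. By library the order was not the same: in LPA library 1 an Atp6v0d2 UMI was found in 37.9% of members with Gpnmb only and in 2 of the 4 with Spp1 only, against 30.3% and 11.1% in library 2 and 36.6% and 23.1% in library 3. Pooled over libraries, Lama3 stood at 264, 259 and 65.8 CPM in the same 3 sets. LPA library 1 held 4 members with Spp1 only, so this set was not tested against the others, and these values are a description.

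The values at the edge of the choice are given as a description. Those with exactly 2 UMIs of Spp1 and Gpnmb had a UMI of Atp6v0d2 in 19.3% of nuclei and of Itgax in 10.5%, and the 129 nuclei just outside, with 1 UMI, in 12.4% and 7.75%. Fnip2 UMIs were found in 86.0% just inside and 70.5% just outside, and Stab1, pooled over libraries, stood at 1176 CPM just inside, 735 CPM just outside and 894 CPM in all members. The nuclei just outside were thus above the comparison microglia for Atp6v0d2, of which at most 1.05% held a UMI in any library.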

How the data were processed

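Counts were deposited by the authors as raw UMI matrices, 1 per library, made with Cell Ranger 4.0.0 (per the submitters' processing notes) from 10x 3′ v3 reads and a pre-mRNA reference of build mm10, so intronic reads were counted. The study's limits on genes and mitochondrial reads per nucleus were applied, and an upper limit on UMIs (the third quartile plus 1.5 interquartile ranges, a factor chosen here) was an alternative; its normalization was not repeated. The members and gene lists were chosen with earlier results of these data known. UMIs were summed per library and set and tested with edgeR 4.0.16 (TMM, filterByExpr, quasi-likelihood) in R 4.3.3, with library as a block where both sets came from the same brains; DESeq2 1.42.0 was an alternative. Printed CPM are plain, and fold changes use TMM. The ± after a CPM is the SD over libraries. The ± after a log2 fold change is a standard error derived from the fold change and the F statistic of the edgeR test. Each library is 1 brain. Where library was a block, p-values measure how the difference between sets within a brain varied over the 3 LPA brains. Against vehicle libraries they measure the spread between 3 brains a group. Named were, per comparison, the 10 genes with the largest fold change in each direction among called genes with at least 100 CPM in the higher set and the same direction in every library (no overlap of libraries against vehicle), and from each list up to 4 called genes of lowest adjusted p in each direction; other list genes are named with their values. Some genes that met this rule are not reported here. Genes named outside these were chosen after their values were seen. Doublets were not removed; Scrublet (scanpy 1.11.5) calls were left out as an alternative. Every pair of libraries shared 268 to 303 barcodes, none of them members in both. The edgeR step was tested on simulated data. Gene positions are from GENCODE in mm10.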

Additional observations from a re-analysis of the deposited data

How the results depend on the processing

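No gene named by rule for the comparisons of members with LPA microglia, macrophages or vehicle microglia changed direction under any alternative. Of these genes, 26 of 61, 17 of 44 and 51 of 69, in that order, were called under each alternative in which they could be tested. The comparison of LPA with vehicle microglia was not run under any alternative. The share of members among nuclei kept in LPA libraries was 0.745% with at least 5 Spp1 and Gpnmb UMIs and 0.991% with at least 4 UMIs in the myeloid gate (1.15 to 1.35 without single libraries), and the vehicle share, 0.0230% in the report, was 0.00335% without Scrublet calls, 0.0122% and 0.00810% with at least 3 and 5 Spp1 and Gpnmb UMIs, 0.0108% with at least 4 myeloid UMIs and 0.0149% without Runx1 in the gate, an alternative chosen after seeing the data (0.0143 to 0.0283). Against LPA microglia, higher genes numbered 278 by DESeq2 and 44 with the microglial limit on members (334 to 457 without single libraries). Lower genes numbered 73 by DESeq2, 7 with that limit, 499 without Scrublet calls, 284 with no microglial limit on the comparison nuclei, 372 with no filter on low counts, 518 after thinning and 412 with an upper limit on UMIs (137 to 171). Against macrophages they were 49 higher and 82 lower by DESeq2 and 215 higher with no filter, and 11 to 185 and 23 to 195 without single libraries. Against vehicle microglia, 192 were lower by DESeq2 and 488 with no filter, and 413 to 853 were higher and 178 to 443 lower without single libraries. Between members with both genes and with Gpnmb only (a comparison chosen after seeing the data), 15 were higher and 6 lower with no filter, and 0 to 7 and 0 to 16 without single libraries. It took the place of Gpnmb only against Spp1 only, which was not run because LPA library 1 held 4 members with Spp1 only. The cause of these changes was not tested.

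Deviations of same-numbered LPA and vehicle libraries had correlations of -0.0858, -0.0826 and -0.0563, and those of differently numbered libraries -0.0603 to 0.129. With 3 libraries a group and unlike sets of nuclei, these values cannot settle whether the numbers pair the animals. No pairing was assumed. With the number as a replicate block, 459 genes were higher and 185 lower against vehicle microglia. Without the library block the counts were 600 and 194 against LPA microglia and 120 and 147 against macrophages. Depth limits genes under about 16 CPM in macrophages, where library 3 gives 15.8 CPM per UMI.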
